A study of Mus musculus with 6 samples.

Results

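Brown adipose tissue (BAT) takes lipid from the blood, and 10 genes that encode the steps of this route are described here in BAT of Letmd1 KO and wild-type mice. They are Lpl, Gpihbp1 and Lmf1 at the capillary wall, Cd36, Slc27a1, Slc27a2 and Slc27a4 at fatty acid entry, and Fabp3, Fabp4 and Fabp5 inside the cell. The genes were taken by symbol from the 23282 rows of the deposited count tables, and were chosen with earlier results of these data known. All 10 passed the filter on low counts that kept 12995 genes for testing. Total RNA of BAT came from 3 wild-type and 3 Letmd1 KO males of the C57BL/6N strain, all 5 weeks old. In the KO mice, a knockout-first allele carries a lacZ and neomycin cassette in an intron of Letmd1. The allele came from 1 embryonic stem cell clone and is present in every tissue of the mouse, so a loss in brown adipocytes and a loss elsewhere cannot be told apart in these mice. LETMD1 is a mitochondrial protein of brown adipocytes, and the study compared the genotypes to learn what its loss does to BAT.

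In this route, lipoprotein lipase on the capillary wall releases fatty acids from triglyceride-rich lipoproteins. The fatty acids enter the adipocyte with the help of the scavenger receptor CD36 and of fatty acid transport proteins, which also couple long fatty acids to coenzyme A. Small fatty acid binding proteins (FABPs) then carry them in the cytosol. BAT is known as a large consumer of circulating triglyceride when it produces heat.

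The libraries were made with QuantSeq, which reads mRNA from its 3′ end, so a count stands for about one transcript whatever the length of the gene, and levels of different genes are set side by side as CPM, which brings every library to the same total, here with TMM factors. The mice had between 6669577 and 14574273 counts, and a floor of 3 counts stood for 0.176 to 0.397 CPM, which covers counting error only. Counts of Letmd1 matched the labelled genotypes, at 5658, 6490 and 5266 in wild-type BAT and at 0, 0 and 1 in KO BAT. All 6 adipocyte markers and all 6 brown adipocyte markers were present in every mouse, as the label of the tissue requires. With TMM, all 6 markers of both lists were lower in KO BAT at an adjusted p under 0.05, beside 22.3% of all genes tested. After quantile normalization with limma, 4 of the 6 adipocyte markers were lower and 1 was higher, beside 23.7% and 20.9% of all genes. All 6 brown adipocyte markers stayed lower there. The summed level of the adipocyte markers, Adipoq, Plin1 and Lipe among them, was 3844 to 5485 CPM in KO BAT against 10274 to 11100. The summed level of the brown adipocyte markers, which include Ucp1, was 2232 to 3724 CPM against 14507 to 16044. All 12 macrophage markers were higher with TMM at an adjusted p under 0.05, beside 23.7% of all genes tested. Their sums were 1506 to 3621 CPM against 184 to 258. The 3 erythroid markers overlapped at 9164 to 12276 CPM against 9033 to 16607. In bulk tissue, fewer cells of a type and less RNA per cell cannot be told apart.

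The 10 genes differed between the genotypes in both directions. The fatty acid transport protein gene Slc27a2 was almost lost, the main binding protein Fabp4, the lipase maturation factor Lmf1 and the transporter Slc27a4 fell, and Fabp3 rose. Lpl, Gpihbp1, Cd36, Slc27a1 and Fabp5 did not pass the threshold of 0.05 on the adjusted p of edgeR's quasi-likelihood test. Thus 4 of 10 genes were lower, against 22.3% of all genes tested, and 1 of 10 was higher, against 23.7%. Values of wild-type and KO mice did not overlap for the same 5 genes, and 57.3% of all genes tested were separated in this way. The median log2 fold change (KO minus wild type) of the 10 genes was -0.37, and that of all genes was 0.033.

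**Figure D1:**
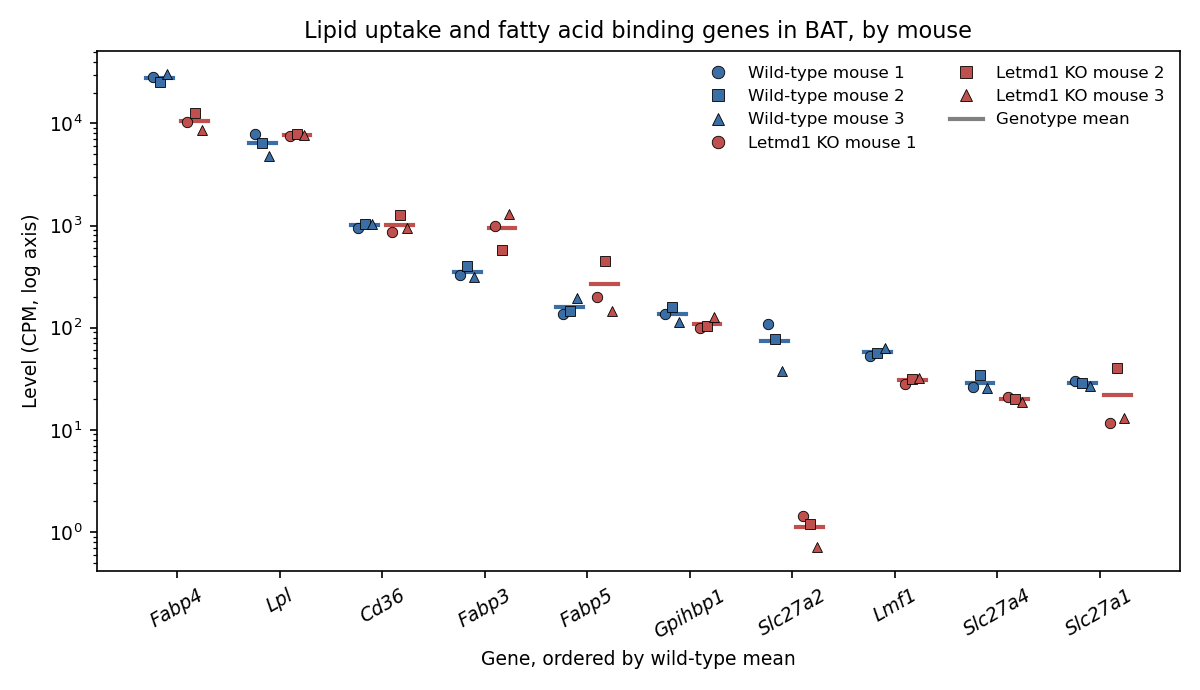
Level of each gene in each mouse, in CPM on a log axis, with genes ordered by their wild-type mean. Points are mice, blue for wild type and red for Letmd1 KO, and bars are genotype means (n = 3 per genotype). Slc27a2 fell from a mean of 74.5 CPM to 1.11, Fabp4 fell within the top of the range, and Fabp3 rose to the level of Cd36.

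Scaling decided several calls. TMM gave factors of 0.852 to 0.886 to the wild-type libraries and of 1.13 to 1.17 to the KO libraries. With library size alone, the median of all genes moved to 0.45 and 45.4% of genes were called higher and 10.5% lower. Then 3 of the 10 genes were lower (Lmf1, Slc27a2 and Fabp4) and 4 were higher (Lpl, Cd36, Fabp3 and Fabp5), with a median of 0.043. Under quantile normalization with limma, the normalization that the study's methods name, 23.7% of genes were lower and 20.9% higher. In that fit 4 of the 10 genes were lower, as with TMM, and 3 were higher (Lpl, Cd36 and Fabp3). Lmf1, Slc27a2 and Fabp4 were lower and Fabp3 was higher under all 3 scalings.

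**Figure D2:**
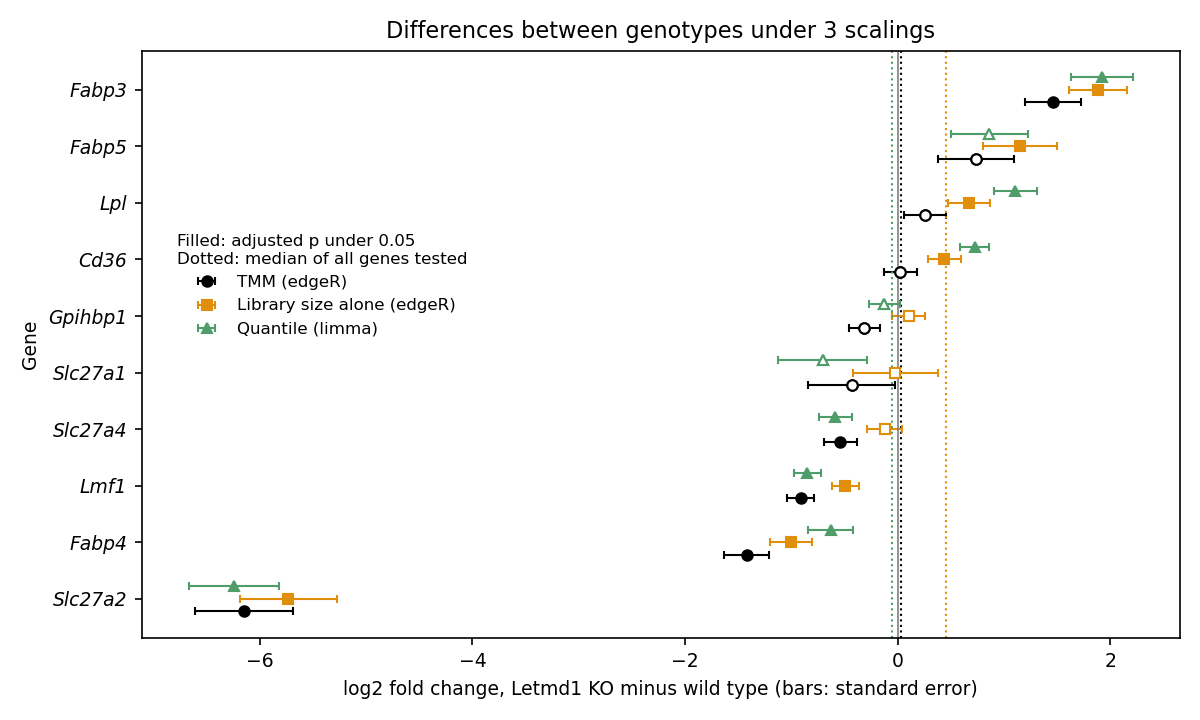
Difference between genotypes for each gene on the log2 scale (Letmd1 KO minus wild type, bars show the standard error) under TMM, library size alone and quantile normalization. Filled symbols passed an adjusted p of 0.05 and dotted lines mark the median of all genes tested. Slc27a2, Fabp4 and Lmf1 stay left of 0 and Fabp3 right of 0 in each, whereas Lpl and Cd36 pass the threshold only without TMM.

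At the capillary wall, the maturation factor of the lipase fell, and the lipase and its anchor did not pass the threshold. Lpl encodes lipoprotein lipase and lies on chromosome 8 (68880491 to 68907448, plus strand, positions here and below in GENCODE on GRCm38). Its level was 7894, 6442 and 4792 CPM in wild-type BAT and 7453, 7797 and 7612 CPM in KO BAT. The KO mice lay within the wild-type range and close to each other, with means of 6376 ± 1552 and 7621 ± 172 CPM (SD, n = 3). This gave a log2 fold change of 0.26 (SE 0.20, 95% interval -0.19 to 0.70, edgeR adjusted p = 0.318). It was 0.68 with library size alone (adjusted p = 0.0161) and 1.11 after quantile normalization (limma adjusted p = 0.00191). Among all genes tested, Lpl ranked 10 in wild-type BAT and 4 in KO BAT by mean level.

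Lmf1 encodes an endoplasmic reticulum protein that lipases need to fold into an active dimer, and lies on chromosome 17 (25579085 to 25662826, plus strand). It was at 52.4, 56.6 and 63.5 CPM in the wild-type mice and at 27.9, 31.4 and 32.3 CPM in the KO mice. Every KO mouse was below every wild-type mouse, and the mean fell from 57.5 ± 5.61 to 30.5 ± 2.31 CPM, 1.88-fold. The log2 fold change was -0.91 (SE 0.13, 95% interval -1.20 to -0.62, edgeR adjusted p = 0.000446), and it stayed past the threshold in all 15 alternative fits, at -0.98 to -0.49.

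Gpihbp1 encodes the endothelial protein that carries the lipase across the capillary and holds it there, and lies on chromosome 15 (75596628 to 75599481, plus strand). It was at 136, 159 and 114 CPM in the wild-type mice and at 100.1, 103 and 126 CPM in the KO mice, so that KO mouse 3 lay above wild-type mouse 3. The log2 fold change was -0.31 (SE 0.15, 95% interval -0.64 to 0.018, edgeR adjusted p = 0.111), and with library size alone it was 0.11. Without wild-type mouse 3 it was -0.44 (adjusted p = 0.0296), and with the skeletal muscle markers as a covariate -0.60 (adjusted p = 0.0369). Endothelial markers were all present, with summed levels of 539 to 681 CPM in KO BAT and 814 to 901 in wild-type BAT. Under TMM 4 of the 10 markers were lower, beside 22.3% of all genes tested. With library size alone 1 was lower and 1 higher, beside 10.5% and 45.4% of all genes. After quantile normalization 3 were lower, beside 23.7%. Set against the mean of these markers in the same mouse, Gpihbp1 had log2 ratios of 1.38, 1.37 and 0.76 in wild-type BAT and of 0.94, 1.27 and 1.30 in KO BAT. The means were 1.17 ± 0.36 and 1.17 ± 0.20 (SD, n = 3), a difference of 0.0018 (two-sided exact permutation test, p = 1.0).

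The lipase and its anchor can also be compared within a mouse, where library size factors play no part. The log2 ratio of Lpl to Gpihbp1 was 5.85, 5.34 and 5.40 in wild-type BAT and 6.22, 6.24 and 5.92 in KO BAT. All 3 KO mice were above the wild-type mice, by 0.59 on average, or 1.51-fold. The exact p was 0.1 (two-sided permutation test), the smallest that 3 mice against 3 can give, and 0.167 after adjustment over the 5 ratios that were compared.

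At the step of entry, Slc27a2 and Slc27a4 fell, and Cd36 and Slc27a1 did not pass the threshold. Cd36 encodes the membrane glycoprotein that binds long-chain fatty acids and lies on chromosome 5 (17781690 to 17888801, minus strand). It was at 954, 1031 and 1027 CPM in the wild-type mice and at 861, 1261 and 942 CPM in the KO mice. KO mouse 2 was the highest of all 6 and the other KO mice were the lowest. On the log2 scale, KO and wild type differed by 0.025 (SE 0.16, 95% interval -0.33 to 0.38, edgeR adjusted p = 0.910). It was 0.44 with library size alone (adjusted p = 0.0317), close to the median of 0.45 of all genes in that fit, and 0.72 after quantile normalization (limma adjusted p = 0.00223). The sign turned without wild-type mouse 1 (-0.018) and without KO mouse 2 (-0.16).

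Slc27a2 encodes FATP2, an acyl-CoA synthetase for very long chains that also takes part in fatty acid uptake, and lies on chromosome 2 (126552407 to 126588243, plus strand). Its counts were 1010, 724 and 291 in wild-type BAT and 13, 9 and 12 in KO BAT. In CPM these were 109, 76.8 and 37.9 in wild-type BAT and 1.43, 1.19 and 0.706 in KO BAT. Wild-type mice differed among themselves by more than KO mice did on this scale, and the lowest of them was still far above the highest KO mouse. The mean fell from 74.5 ± 35.5 to 1.11 ± 0.368 CPM, which was 71.1-fold on the fitted scale, and the rank of the gene by mean level went from 2549 to 12707. This was a log2 fold change of -6.15 (SE 0.46, 95% interval -7.19 to -5.12, edgeR adjusted p = 1.54e-05), and it lay between -6.49 and -5.73 in all 15 alternative fits.

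Slc27a2 and Cd36 were also the genes whose promoter sequence held the core element of nuclear receptors such as PPARγ, which controls many lipid uptake genes in adipocytes. RefSeq promoters of 300 bases (GRCm38.p6, 250 bases before and 50 after the start) were at hand for 6 of the 10 genes, and the letters AGGTCA were searched on both strands. They occurred once in each of these 2 genes, in neither case as the direct repeat AGGTCANAGGTCA, and not in the windows of Fabp3, Lmf1, Slc27a1 and Slc27a4. Of all 32851 promoters, 16.3% held AGGTCA and 0.0396% held the repeat. A stretch of 30 bases around each match is shown 5′ to 3′ on the strand of the gene, with the element in capitals (read as its reverse complement). That of Slc27a2 is chr2:126552792-126552821, which GENCODE annotates as untranslated region, and that of Cd36 is chr5:17836107-17836136, in an annotated intron.
Slc27a2: gcaccacgccttTGACCTtttcaacgtggg
Cd36: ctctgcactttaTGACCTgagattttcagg
Of these 2 genes, Slc27a2 fell and Cd36 did not pass the threshold under TMM, and a match is a description of the letters only.

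Slc27a4 encodes FATP4, a widely expressed acyl-CoA synthetase, and lies on chromosome 2 (29802634 to 29817522, plus strand). It was at 26.5, 34.5 and 25.4 CPM in the wild-type mice and at 21.1, 19.9 and 18.7 CPM in the KO mice. The genotypes did not overlap, and the log2 fold change was -0.54 (SE 0.16, 95% interval -0.89 to -0.18, edgeR adjusted p = 0.0198). The call rested on the scaling and on single mice. It was lost with library size alone (-0.12, adjusted p = 0.560), without wild-type mouse 2 (-0.41, adjusted p = 0.0798) and without KO mouse 3 (-0.49, adjusted p = 0.0756).

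Slc27a1 encodes FATP1, the transport protein of fat and muscle that insulin brings to the cell surface, and lies on chromosome 8 (71568882 to 71587302, plus strand). It was at 30.3, 28.9 and 26.7 CPM in the wild-type mice and at 11.5, 40.5 and 12.9 CPM in the KO mice. KO mouse 2 was above all wild-type mice, and KO mice 1 and 3 were below all of them. Over all 6 mice, the log2 fold change was -0.43 (SE 0.41, 95% interval -1.36 to 0.50, edgeR adjusted p = 0.424). Without KO mouse 2 it was -1.22 (SE 0.16, adjusted p = 0.000414). Slc27a1 and Slc27a4 were about equal in wild-type BAT, with a mean log2 ratio of 0.0041 ± 0.23. In the KO mice the ratio was -0.86, 1.02 and -0.52, a difference in means of -0.13 with both directions present (two-sided exact permutation test, p = 0.9).

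Inside the cell, Fabp4 fell, Fabp3 rose and Fabp5 did not pass the threshold. Fabp4 encodes the adipocyte FABP and lies on chromosome 3 (10204088 to 10208576, minus strand). It was at 28201, 25674 and 30186 CPM in the wild-type mice and at 10216, 12641 and 8528 CPM in the KO mice. All KO mice were far below the wild-type mice, and the mean fell from 28020.3 ± 2261 to 10462 ± 2068 CPM, 2.68-fold. The log2 fold change was -1.42 (SE 0.21, 95% interval -1.90 to -0.95, edgeR adjusted p = 0.000592), and it was past the threshold in all 15 alternative fits, at -1.58 to -0.63. Even so, Fabp4 only went from rank 2 to rank 3 among all genes tested. The fall stood beside that of the adipocyte markers, whose median log2 fold change was -1.50 under TMM. After quantile normalization the marker median was -0.76 and Fabp4 was at -0.63. The part of these cells in the fall of Fabp4 was not tested.

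Fabp3 encodes the FABP of heart, skeletal muscle and active BAT, and lies on chromosome 4 (130308595 to 130315463, plus strand). It was at 327, 401 and 313 CPM in the wild-type mice and at 991, 572 and 1305 CPM in the KO mice. The lowest KO mouse was above the highest wild-type mouse, and the mean rose from 347 ± 47.6 to 956 ± 368 CPM, 2.76-fold. The log2 fold change was 1.46 (SE 0.26, 95% interval 0.87 to 2.05, edgeR adjusted p = 0.00167), and the rank of Fabp3 by mean level went from 502 to 83.

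Skeletal muscle RNA moved with Fabp3. The summed level of 15 skeletal muscle markers, such as Acta1, Ckm and Myh4, was 88.8, 573 and 102 CPM in wild-type BAT and 528, 411 and 1479 CPM in KO BAT. In wild-type mice 1 and 3, most of the sum was Myl1 (77.0 and 91.3 CPM), which did not pass the test between the genotypes. The other 14 markers summed to 11.9, 443 and 10.4 CPM in wild-type BAT and to 464, 339.9 and 1325 CPM in KO BAT. Of the 15 markers, 7 were at 0 in wild-type mouse 1 and 4 in wild-type mouse 3, among them Ckm and Myh4, and none was at 0 in the other 4 mice. Under TMM 1 of the 15 markers was higher, with library size alone 3 and after quantile normalization 10, beside 23.7%, 45.4% and 20.9% of all genes. Within each genotype, the order of the mice by Fabp3 was close to that by these markers, with KO mouse 3 and wild-type mouse 2 highest in both. Across genotypes it was not. Wild-type mouse 2 had a marker mean of 4.57 log2 CPM, above KO mice 1 and 2 at 4.49 and 4.16. Its Fabp3 was 401 CPM, below their 991 and 572 CPM. With the mean log2 CPM of the markers as a covariate, Fabp3 was 1.03 (SE 0.38, edgeR adjusted p = 0.0745), the only one of 15 alternative fits in which it missed the threshold. Without wild-type mouse 2 and KO mouse 3 together, it was 1.28 (SE 0.26, edgeR adjusted p = 0.00933). Wild-type mice 1 and 3 had marker means of -0.33 and -0.23 log2 CPM, far below KO mice 1 and 2. Muscle RNA and genotype therefore cannot be told apart in that fit. How much of the Fabp3 difference came with muscle RNA was not tested further. Of the stretches of 75 bases in the last 500 bases of Fabp3 transcripts, 20.9% were shared with its pseudogene Fabp3-ps1 or with Zcchc17, a gene of the opposite strand that overlaps its 3′ end. Per the study's methods, reads with unique and with multiple alignments were both counted. The use of strand in counting is not given in the sources used here. Zcchc17 itself was at 47.2 to 55.4 CPM in wild-type BAT and at 35.9 to 44.1 CPM in KO BAT, and the part of shared or opposite-strand reads in the Fabp3 counts was not tested.

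**Figure D3:**
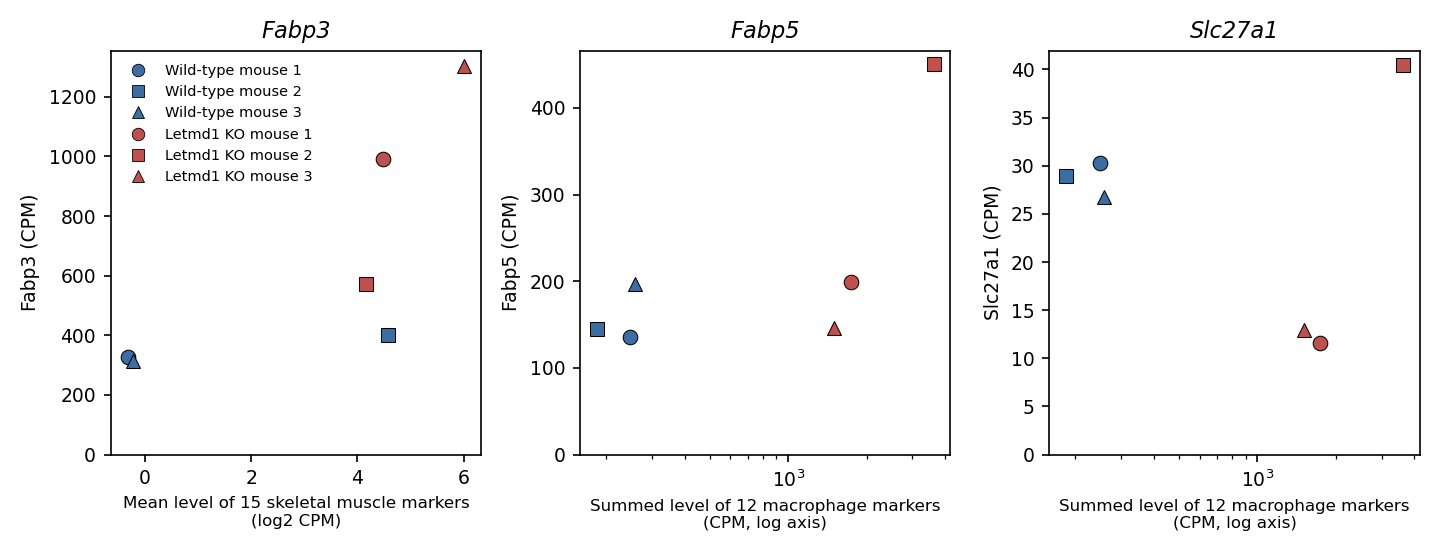
Level of Fabp3, Fabp5 and Slc27a1 in each mouse (CPM) against the mean log2 CPM of skeletal muscle markers (for Fabp3) or the summed level of macrophage markers on a log axis (for Fabp5 and Slc27a1) in the same mouse. KO mouse 3 is highest in muscle markers at 6.02 and in Fabp3 at 1305 CPM, and KO mouse 2 is highest in macrophage markers at 3621 CPM, in Fabp5 at 450.2 CPM and in Slc27a1 at 40.5 CPM.

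Fabp5 encodes the epidermal FABP, which adipocytes and macrophages also make, and lies on chromosome 3 (10012548 to 10016607, plus strand), as does Fabp4. It was at 135, 145 and 197 CPM in the wild-type mice and at 199, 450.2 and 146 CPM in the KO mice. KO mouse 2 stood apart, and KO mice 1 and 3 were within or just above the wild-type range. Over all 6 mice, the log2 fold change was 0.74 (SE 0.36, 95% interval -0.070 to 1.54, edgeR adjusted p = 0.122), and 0.12 without KO mouse 2. It passed the threshold with library size alone (1.15, adjusted p = 0.0188) and without KO mouse 3 (1.03, adjusted p = 0.0303).

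KO mouse 2 was the highest of the KO mice in Fabp5, Slc27a1, Cd36, Fabp4 and Lpl. It was also the highest of them in macrophage markers, at 3621 CPM against 1738 and 1506, and in adipocyte markers, at 5485 CPM against 3844 and 3851. In brown adipocyte markers it was the lowest of them, at 2232 CPM against 2846 and 3724. The same held for endothelial markers, at 539 CPM against 681 and 678, and for the sums of skeletal muscle and erythroid markers. The part of these cell types in the values of the 10 genes was not tested.

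Shares of a library use no TMM factor, so they carry the limits of library size alone given above. The 3 FABP genes together took 2.46% ± 0.15 of all counts in wild-type BAT and 1.35% ± 0.19 in KO BAT (SD, n = 3). Fabp4 alone took 2.41%, 2.27% and 2.57% in wild-type BAT and 1.19%, 1.43% and 0.995% in KO BAT. Among the counts of the 3 genes, Fabp3 made up 1.14%, 1.53% and 1.02% in wild-type BAT and 8.69%, 4.19% and 13.1% in KO BAT. Fabp5 made up 0.472%, 0.552% and 0.642% in wild-type BAT and 1.75%, 3.30% and 1.47% in KO BAT. Every KO mouse thus had a larger share of both minor FABPs than any wild-type mouse. Fabp4 made up 98.2% of these counts on average in wild-type BAT, so its fall by itself raises both shares. Fabp5 did not pass the threshold under TMM, and the limits given above for Fabp3 hold here too. Counting error was small against these differences, with Wilson 95% intervals at most 0.186 percentage points to either side.

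**Figure D4:**
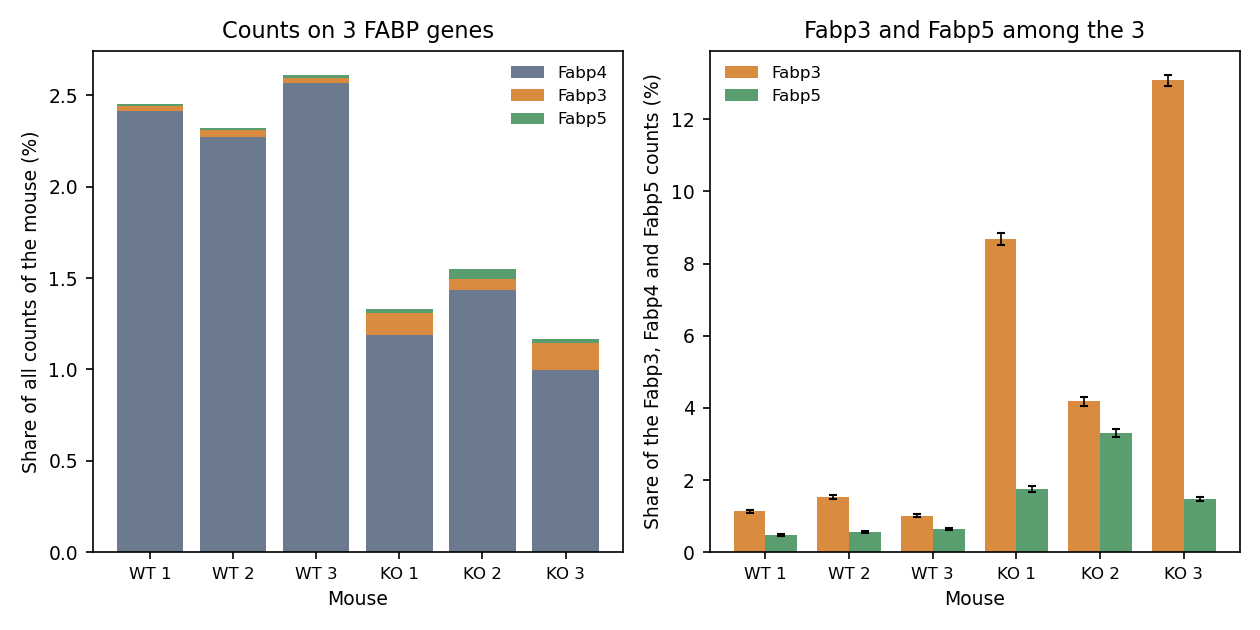
Left, share of all counts of a mouse that fell on Fabp4, Fabp3 and Fabp5, stacked, in percent. Right, share of Fabp3 and Fabp5 among the counts of these 3 genes, in percent, with Wilson 95% intervals. The stack is lower in each KO mouse (mean 1.35% against 2.46%), and the Fabp3 share is higher (4.19% to 13.1% against 1.02% to 1.53%).

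The log2 ratio of Fabp3 to Fabp4 was -6.34 ± 0.31 in wild-type BAT and -3.51 ± 0.89 in KO BAT (SD, n = 3), a difference of 2.83, or 7.10-fold. That of Fabp5 to Fabp4 was -7.48 ± 0.22 and -5.45 ± 0.56, a difference of 2.03, or 4.07-fold. Neither ratio overlapped between the genotypes, and for each the two-sided exact permutation test gave p = 0.1, which is 0.167 after adjustment over the 5 ratios. Both ratios are taken against Fabp4, so the fall of Fabp4 is part of each difference.

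The order of the 10 genes by level changed at a few places. In wild-type BAT it ran from Fabp4 through Lpl, Cd36, Fabp3, Fabp5, Gpihbp1, Slc27a2, Lmf1 and Slc27a4 to Slc27a1. Ranges of the 3 mice overlapped between Fabp5 and Gpihbp1, between Slc27a2 and Lmf1, and between Slc27a4 and Slc27a1. In KO BAT the range of Fabp3 overlapped that of Cd36, those of Lmf1, Slc27a1 and Slc27a4 overlapped in turn, and Slc27a2 stood last with no overlap. Fabp4 and Lpl had means of 28020.3 and 6376 CPM in wild-type BAT and of 10462 and 7621 CPM in KO BAT, and every KO mouse still had more Fabp4 than Lpl.

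Genes whose pattern over the 6 mice was closest to that of Slc27a2 and Fabp3 were found by the root mean square difference of log2 CPM, each taken from its own wild-type mean. For Slc27a2 these were Clstn3 (0.833), Adprhl1 (0.846) and Plet1os (0.931). None of them shared the decline of Slc27a2 from wild-type mouse 1 to wild-type mouse 3. Clstn3, for example, was at 179, 186 and 180 CPM in wild-type BAT. Clstn3 fell from 182 ± 3.62 to 6.05 ± 4.99 CPM, and counts of Adprhl1 were 80, 141 and 91 in wild-type BAT and 1, 0 and 4 in KO BAT. For Fabp3 the nearest were Tpm1 (0.192), Hk1 (0.207) and Gtpbp2 (0.223). Tpm1, a tropomyosin, rose from 92.5 ± 17.2 to 217 ± 64.9 CPM, and Hk1, a hexokinase, from 22.5 ± 4.40 to 52.9 ± 11.8 CPM.

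Beyond the 10 genes, 42 others of lipoprotein handling and lipid uptake were listed, of which 32 were tested, 13 were lower and 6 were higher, beside 22.3% and 23.7% of all genes tested, with a median log2 fold change of -0.48. With library size alone 12 were lower and 8 higher (10.5% and 45.4% of all genes), and after quantile normalization 15 were lower and 7 higher (23.7% and 20.9%). The lower genes named below were called in all 15 alternative fits, except Tcf15, which missed the threshold with library size alone. Of the 6 higher genes, 1 (Angptl4) was called with the skeletal muscle markers as a covariate, and 3 (Angptl4, Sel1l and Slc27a3) without KO mouse 2. Among lipase partners and apolipoproteins, 5 of 10 tested genes were lower and 2 were higher. Apoc1, an apolipoprotein that slows lipoprotein clearance, fell from 572 ± 41.5 to 44.4 ± 27.5 CPM (log2 fold change -3.70, SE 0.37, edgeR adjusted p = 5.66e-05). Angptl8, a feeding-induced regulator of the lipase, which the tables hold under the symbol Gm6484, fell from 29.8 ± 3.17 to 3.04 ± 2.41 CPM (-3.39). Angptl4, which unfolds the lipase and so inhibits it, rose from 232 ± 47.0 to 521 ± 58.9 CPM (log2 fold change 1.17, SE 0.16, adjusted p = 0.000352). Sel1l, an endoplasmic reticulum protein that works with LMF1 in lipase folding, rose from 113 ± 1.11 to 169 ± 15.2 CPM (0.58, adjusted p = 0.00167). Both genes were higher under all 3 scalings, and Sel1l missed the threshold with the muscle covariate (0.53, adjusted p = 0.0526).

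Of 6 lipoprotein receptors, 2 were lower and 1 was higher, beside 22.3% and 23.7% of all genes. The receptor for very low density lipoprotein, Vldlr, fell from 259 ± 3.55 to 114 ± 20.6 CPM (log2 fold change -1.18) and Sort1, a sorting receptor, from 162 ± 17.4 to 72.9 ± 25.3 CPM (-1.16). Lrp1, an endocytic receptor, rose from 112 ± 21.6 to 168 ± 39.8 CPM (0.58, edgeR adjusted p = 0.0291), a call that was lost without wild-type mouse 2, wild-type mouse 3 or KO mouse 2 (0.37 to 0.51). Of 5 tested genes of other entry routes and of caveolae, 1 was lower and 2 were higher. Mfsd2a, a carrier of lysophospholipids, had counts of 1230, 686 and 180 in wild-type BAT and of 37, 19 and 25 in KO BAT (log2 fold change -4.90, SE 0.64, adjusted p = 0.000281). As with Slc27a2, wild-type mouse 1 was highest and wild-type mouse 3 lowest. Cav2, a caveolin, rose from 109 ± 6.49 to 138 ± 10.5 CPM (0.34, adjusted p = 0.0258), a call that was lost without any 1 of wild-type mice 2 and 3 and KO mice 2 and 3 (0.30 to 0.31). Slc27a3, another transport protein, rose from 0.522 to 2.54 CPM (2.22), from near the floor.

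Of 9 other lipid binding proteins, 3 were tested and 6 did not pass the filter on low counts, with at most 18 counts in any mouse. Dbi, the acyl-CoA binding protein, fell from 9398 ± 55.7 to 1961 ± 524 CPM (log2 fold change -2.26, SE 0.21, edgeR adjusted p = 3.89e-05), and Scp2, a sterol carrier, from 772 ± 27.7 to 283 ± 55.7 CPM (-1.45). Fabp7, the brain FABP, rose from 0.817 to 4.72 CPM (2.44, adjusted p = 0.0223), and missed the threshold without KO mouse 2 (2.01, adjusted p = 0.0687) and without wild-type mouse 1 (2.35, adjusted p = 0.0636). Among 8 transcription factors and signals of the route, 3 were lower and none was higher under TMM (22.3% and 23.7% of all genes), and 2 were lower and 1 was higher with library size alone (10.5% and 45.4%). Cebpa, a factor of adipocyte differentiation, fell from 439 ± 74.9 to 164 ± 45.1 CPM (-1.43), and Vegfb, a growth factor tied to endothelial fatty acid uptake, from 280.2 ± 11.2 to 116 ± 11.4 CPM (-1.27).

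**Figure D5:**
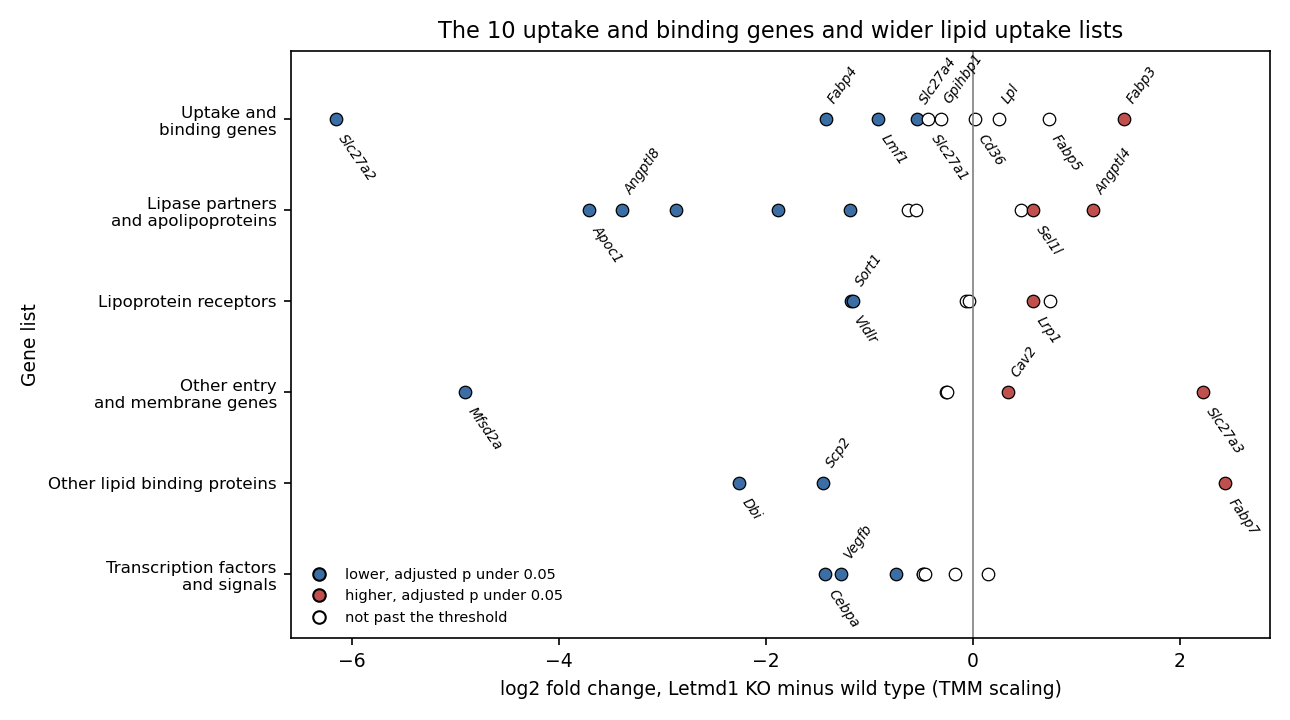
Log2 fold change (Letmd1 KO minus wild type, TMM scaling) of the 10 uptake and binding genes and of the 32 tested genes in 5 wider lists, 1 row per list and 1 point per gene. Blue and red points passed an adjusted p of 0.05 as lower or higher, and open points did not. Slc27a2 at -6.15 and Mfsd2a at -4.90 lie farthest left, and Angptl4 at 1.17 and Fabp3 at 1.46 stand on the right among genes of high level.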

How the data were processed

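BAT RNA of 3 wild-type and 3 Letmd1 KO mice was sequenced with QuantSeq libraries. The authors aligned reads with Bowtie2 to mm10 (per the submitters' processing notes), counted them on genes with bedtools and deposited raw counts, 1 table per mouse. Per the study's methods, unique and multiple alignments both entered the counts. Tool versions and the use of strand are not given in the sources used here. The quantile normalization of the study's methods is not in the deposited counts.

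Mice were grouped by the labelled genotype. Counts were scaled by TMM, filtered by edgeR's default (minimum count 10, minimum total 15) and tested with edgeR 4.0.16 in R 4.3.3 (quasi-likelihood, Benjamini-Hochberg adjustment over all genes tested, threshold 0.05), with limma 3.58.1 and DESeq2 1.42.0 as alternatives. Log2 CPM used a prior count of 2. Ratios were tested by exact two-sided permutation of the genotypes, which cannot go below p = 0.1. P-values measure the spread between these mice. No library was counted as a repeat of another, since chi-square per degree of freedom within a genotype was 11.5 to 34.0. The steps were tested on simulated counts in which few genes changed, as many up as down. Such counts hold no shift of scale between the genotypes, so they cannot test how the calls depend on scaling.

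The 10 genes and all lists were chosen with earlier results of these data known. Named are these genes, Letmd1, up to 2 genes per direction with the most extreme change among called genes of each pathway list, up to 3 examples per marker list, and the 3 nearest patterns to the most lowered and most raised gene. Zcchc17 was added for its overlap with Fabp3. Alternatives were other scalings and filters, DESeq2, a replicate block, a muscle marker covariate, another prior count, another summary of endothelial markers and leaving out mice.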

Additional observations from a re-analysis of the deposited data

How the results depend on the processing

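In the main fit 5978 genes passed the threshold. In a separate fit with muscle markers as a covariate, which spends a degree of freedom, 3598 passed. Without wild-type mouse 2 and KO mouse 3 together, which uses 4 mice, 3889 passed. These are totals of each fit, and how many genes they share was not counted. Leaving out 1 mouse at a time gave 4842 to 5868. Over all alternatives, 3 to 5 of the 10 uptake and binding genes were lower and 0 to 4 higher, and 12 to 16 of the 32 wider genes were lower and 1 to 8 higher, with 1 under the muscle covariate and 3 without KO mouse 2. Gpihbp1 turned to 0.11 with library size alone. With 1 mouse left out, Cd36 ranged from -0.16 to 0.13, the Slc27a1 to Slc27a4 ratio from -0.70 to 0.24, and the Gpihbp1 to endothelial ratio from -0.20 to 0.12. The causes of these turns were not tested. The Fabp3 to Fabp4 ratio stayed at 2.42 to 3.30, the Fabp5 to Fabp4 ratio at 1.49 to 2.23 and the Lpl to Gpihbp1 ratio at 0.50 to 1.23 over their alternatives. Mice with the same number did not deviate together (correlations 0.0691, -0.111 and -0.0865), so the numbers were not taken as pairs, and only KO mouse 1 among the KO mice correlated best with its own number. With the replicate block, 5599 genes passed the threshold, 2713 lower and 2886 higher, and the block changed no call among the 10 genes (4 lower, 1 higher). Depth left Slc27a2, the gene with the lowest level, 9 to 13 counts in KO mice, above the floor of 3.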

Other observations

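The remaining genes of the wider lists, chosen for mention after their values were seen, held some of the better known names of lipid uptake. Pparg, the nuclear receptor that drives adipocyte genes, was at 516 ± 74.6 CPM in wild-type BAT and 457 ± 110 CPM in KO BAT (log2 fold change -0.18, edgeR adjusted p = 0.470). Ppara, its relative in oxidative tissue, was at 681 ± 31.7 and 488 ± 148 CPM (-0.48, adjusted p = 0.0844). Apoe, a ligand of lipoprotein receptors that macrophages also make, was at 2841 ± 644 and 1841 ± 1178 CPM (-0.63, adjusted p = 0.206). Furin, a protease that cleaves lipases and their ANGPTL regulators, fell from 139 ± 11.4 to 61.1 ± 9.96 CPM (-1.19, adjusted p = 0.000135). Tcf15, a factor that acts with Meox2 on fatty acid uptake of capillary endothelium, fell from 66.7 ± 3.46 to 39.7 ± 9.63 CPM (-0.74, adjusted p = 0.00701, and -0.32 with adjusted p = 0.160 under library size alone), and Meox2 was at 11.6 ± 3.32 and 8.33 ± 1.16 CPM (-0.48, adjusted p = 0.143). Scarb1, the receptor for high density lipoprotein, was at 85.1 ± 5.87 and 82.9 ± 21.5 CPM (-0.041, adjusted p = 0.862).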
